A study of Saccharomyces cerevisiae S288C with 24 samples.

Results

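The effect of added tryptophan (Trp) on wild type (WT) yeast was measured in 12 of the 24 libraries of the series, 6 with Trp (WT+Trp and WT+IB+Trp) against 6 without (WT and WT+IB), with isobutanol (IB) as a covariate. All 12 were chosen by their labels. WT was *Saccharomyces cerevisiae* BY4741, a haploid laboratory strain of mating type a that lacks the marker genes *HIS3*, *LEU2*, *MET17* and *URA3*. Cells of all 4 groups were grown in 4 ml of YPD, a rich medium of yeast extract, peptone and glucose, from an OD600 of 0.5 for 24 h, with 3 replicates in each group. WT received nothing, WT+Trp received 200 µg/ml tryptophan, WT+IB received 1.2% isobutanol, and WT+IB+Trp received both. YPD already contains amino acids, so the comparison was between more and less tryptophan, and not between its presence and its absence. The other 12 libraries come from Sc12, a strain of the same background with a deletion of *TRP5* that was given the same 4 treatments. They were used here to test whether the Trp effect differed between the strains. They also entered the mean level that set which loci were tested, and an alternative fit of all 24 libraries. Whether each replicate was grown as its own culture is not given in the sources used here, and a p-value therefore covers only the spread among these libraries.

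Tryptophan is made in yeast from chorismate by enzymes encoded by *TRP1* to *TRP5*, and its anthranilate synthase (*TRP2* with *TRP3*) is inhibited by tryptophan. Surplus aromatic amino acids are broken down by the Ehrlich pathway, in which a transaminase (*ARO8* or *ARO9*) removes the amino group, a decarboxylase (*ARO10* and the *PDC* enzymes) makes an aldehyde, and a dehydrogenase such as *SFA1* can reduce it to a fusel alcohol. The transcription factor Aro80 turns on *ARO9* and *ARO10* when aromatic amino acids are supplied. A further branch, the kynurenine pathway of the *BNA* genes, turns tryptophan into NAD. When amino acids are short, the factor Gcn4 activates biosynthetic genes, a response called general amino acid control.

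Stretches upstream of 4 genes are shown because these genes are the ones around which the values below turn. Each covers bases 300 to 101 before the coding start, in the RefSeq R64 assembly (called sacCer3 by UCSC), 5′ to 3′ on the strand of the gene. *ARO9* (chrVIII:375409-375608, plus strand) and *ARO10* (chrIV:1233918-1234117, plus strand) were searched on both strands for CCGNNNNNNNCCG, the paired half-sites described for Aro80. *ARG4* (chrVIII:141503-141702, minus strand) and *ARG7* (chrXIII:396480-396679, minus strand) were searched for TGACTC, the core of the Gcn4 motif. Capitals mark the matching letters.
ARO9: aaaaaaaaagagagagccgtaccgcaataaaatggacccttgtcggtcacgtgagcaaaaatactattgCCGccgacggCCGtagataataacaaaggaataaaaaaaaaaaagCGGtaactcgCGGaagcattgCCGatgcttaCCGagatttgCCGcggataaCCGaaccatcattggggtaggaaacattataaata
ARO10: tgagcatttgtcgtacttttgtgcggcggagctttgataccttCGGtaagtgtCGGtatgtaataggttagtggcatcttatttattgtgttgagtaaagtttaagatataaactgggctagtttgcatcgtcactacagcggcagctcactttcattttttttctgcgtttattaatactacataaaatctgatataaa
ARG4: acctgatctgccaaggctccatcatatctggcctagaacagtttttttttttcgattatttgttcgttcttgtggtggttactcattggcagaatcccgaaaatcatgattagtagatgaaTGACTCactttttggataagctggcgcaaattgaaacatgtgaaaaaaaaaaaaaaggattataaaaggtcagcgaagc
ARG7: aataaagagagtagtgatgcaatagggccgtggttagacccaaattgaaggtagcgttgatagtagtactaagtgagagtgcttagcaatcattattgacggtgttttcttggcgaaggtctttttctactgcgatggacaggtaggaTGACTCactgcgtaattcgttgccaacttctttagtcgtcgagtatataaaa
*ARO9* held 5 matches, which began between 231 and 145 bases before the start, on either strand. *ARO10* held 1 match, 257 bases before the start. The Aro80 motif occurred in 141 of 6007 windows of the same length (2.35%). *ARG4* and *ARG7* held 1 Gcn4 core each, 179 and 152 bases before the start, and this core was in 351 windows (5.84%). The windows of *AQR1*, for the Gcn4 core, and of *SIP18*, for the stress response element AGGGG (in 979 windows, 16.3%), held no match. A match describes the letters of the window and does not show binding.

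Depth was 9725586 to 14580261 fragments in the 12 WT libraries (13192425 or more without IB and 13209147 or less with it). *LEU2*, *MET17* and *URA3* had 0 fragments in every one of them, and *HIS3* could not be read because its locus is joined with *DED1*. *TRP5* had 2921 to 8481 fragments in each WT library and 0 to 11 in each Sc12 library. The a-specific mating genes summed to 1583 to 2125 CPM (fragments scaled to a common library size) without IB and to 170.2 to 236.4 with it. The alpha-specific genes were not at 0, with 3560 to 4264 fragments per library without IB and 1199 to 1915 with it. These are unscaled fragments and cannot be set against the CPM of the a-specific genes. In the same unit, the a-specific gene *STE2* alone had 6836 to 8976 fragments without IB and 439 to 742 with it. Distances between libraries in log2 CPM averaged 15.25 for pairs of WT libraries, 20.57 for WT+Trp, 25.9 for WT+IB and 29.76 for WT+IB+Trp. WT and WT+Trp libraries were 19.85 apart, and WT+IB and WT+IB+Trp libraries 28.17, so groups with and without Trp lay no farther apart than libraries within the Trp group. WT+IB+Trp replicate 2 was farthest from its own group (33.35).

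No locus passed the test for the main effect of Trp. Of 6346 loci tested with edgeR's quasi-likelihood test, 0 (0.0%) had a Benjamini-Hochberg adjusted p under 0.05, and the lowest adjusted p was 0.984. Thus 0 loci (0.0%) were differentially expressed genes (DEGs), defined by the study's thresholds of an adjusted p under 0.05 and an absolute log2 fold change over 1. The study applied its thresholds to pairs of groups, so its counts and this one are not for the same comparison. Before adjustment, 198 loci (3.12%) had p under 0.05, 127 higher with Trp (2.0%) and 71 lower (1.12%). DESeq2 also called 0, with 200 below 0.05 before adjustment, and limma on log2(FPKM + 1) called 0, with 34. The number of loci at an unadjusted p under 0.05 was 500 without WT+Trp replicate 2 and 504 without WT+IB+Trp replicate 2, against 132 to 344 without any other single library, and the number called stayed at 0 each time. Without both of these libraries, an alternative chosen after seeing the data, it was 1020 with 0 called.

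How large a main effect could have been missed is given by the 95% intervals of its log2 fold changes. For 6172 of the 6346 loci (97.3%) the interval lay within a 2-fold change in both directions, and for 5780 (91.1%) within a 1.5-fold change. The widths varied with the level. Of 5547 loci with a mean of at least 10 CPM, 99.8% had intervals within 2-fold and 97.7% within 1.5-fold. Of 548 loci between 1 and 10 CPM the shares were 97.6% and 64.6%, and of 251 loci under 1 CPM they were 40.2% and 2.39%. All 22 loci with an absolute log2 fold change over 1 were in the last class. These intervals are for the average of the 2 media, in which opposite effects cancel. In each medium alone, 6336 loci had an interval. Without IB 94.7% of these lay within 2-fold and 83.3% within 1.5-fold, and with IB 92.8% and 78.6%. In the main fit the median absolute log2 fold change was 0.062 for Trp and 0.494 for IB. The IB term of this fit passed the test at 4775 loci (75.2%) and gave 1270 DEGs (20.0%).

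**Figure D1:**
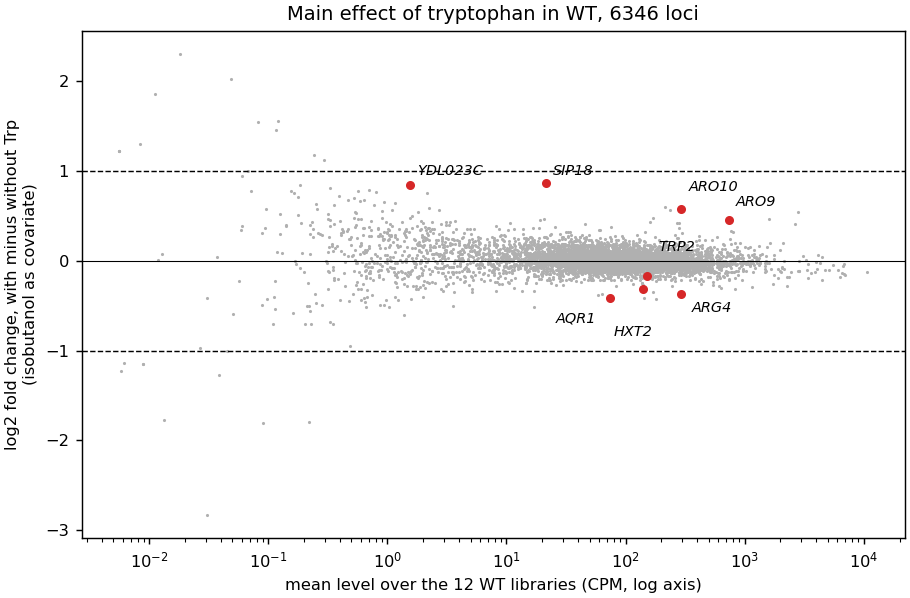
Main effect of Trp in WT for each of 6346 loci, as log2 fold change with minus without Trp (vertical axis) against the mean level over the 12 WT libraries in CPM (log horizontal axis). Dashed lines mark a log2 fold change of 1 and -1; loci beyond them all have means under 1 CPM, and the named loci in red did not pass the test.

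Loci were therefore ranked by their p, and the first 16 are described although they did not pass (adjusted p = 0.984 for each, edgeR). The 95% intervals given for single loci are not adjusted for this ranking or for the number of loci. For the first 16, an interval that excludes 0 follows from the ranking and does not show a change. Of these 16, 9 had higher and 7 lower fitted levels with Trp, and 11 had a mean of at least 10 CPM. All 16 had the same sign in both media, against 39.6% of all 6346 loci. The ranking used the average of the media and so favours a shared sign, which is therefore no separate result. *ARO9*, the aromatic aminotransferase II that starts the breakdown of tryptophan (chrVIII:375709-377250), was 11th. Its levels in CPM were 767, 738 and 735 in WT and 1019, 949 and 1172 in WT+Trp. With IB they were 610, 403 and 483 without Trp and 635, 476 and 892 with it. The 3 WT+Trp libraries lay above all 3 WT libraries, whereas the groups with IB overlapped. The fitted main effect was 1.37-fold, a log2 fold change of 0.45 ± 0.14 (SE, n = 6 and 6) with a 95% interval of 0.16 to 0.75. It was 0.49 without IB (adjusted p = 0.784, edgeR) and 0.42 with IB (adjusted p = 0.406, edgeR).

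*ARO10*, the decarboxylase of the next step (chrIV:1234218-1236125), ranked 90th. It measured 181, 179 and 176 CPM in WT against 246, 238 and 268 CPM in WT+Trp, again without overlap. Under IB it varied far more, at 437, 185 and 247 CPM without Trp and 414, 239 and 727 CPM with it. The main effect was a log2 fold change of 0.58 ± 0.23 (SE) with an interval of 0.09 to 1.07, adjusted p = 0.984 (edgeR). The gene for their activator, *ARO80*, had a log2 fold change of 0.03 (interval -0.09 to 0.16), and *ARO8*, the other aromatic transaminase, one of -0.12 (-0.25 to 0.01). Pyruvate decarboxylases *PDC1*, *PDC5* and *PDC6* had values of -0.11, 0.20 and -0.02. For *PDC5* the libraries under IB with Trp held 72.7, 41.0 and 35.5 CPM, all above the 33.6 to 34.8 CPM without it, and 1 library carried most of the difference. *SFA1* had a main value of -0.03, with 0.30 without IB and -0.37 with it (interaction adjusted p = 0.202, edgeR). Of the 8 genes of aromatic amino acid breakdown, 2 had an unadjusted p under 0.05 (both higher, background 2.0%), 0 passed, and the median log2 fold change was 0.006 against 0.007 for all loci; scaled by relative log expression it was -0.001.

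**Figure D2:**
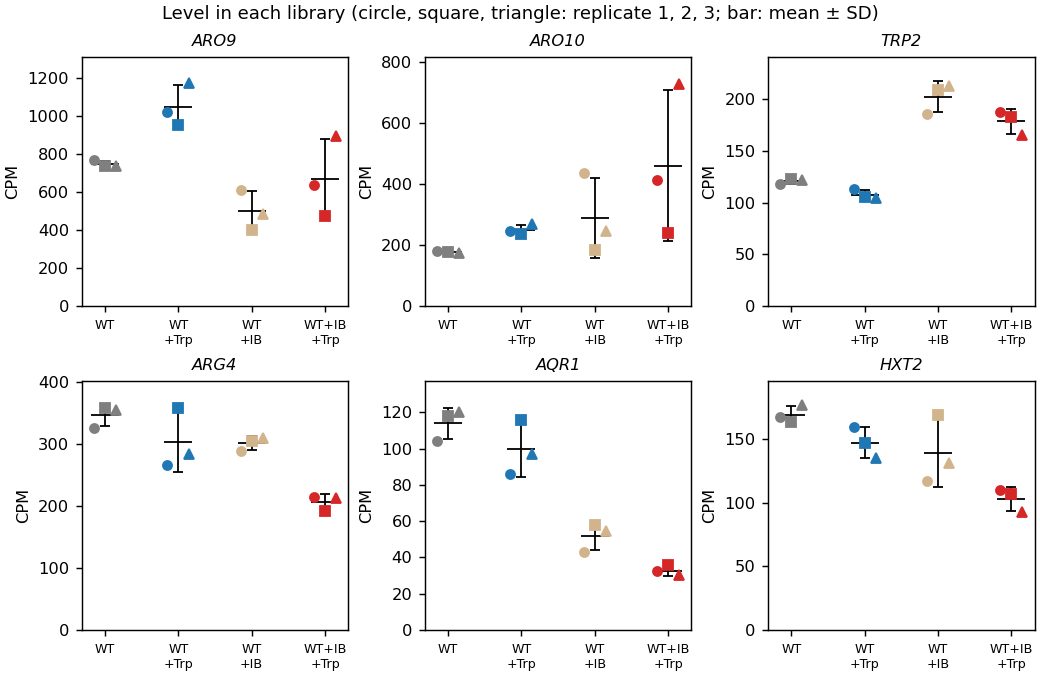
Levels in CPM of *ARO9*, *ARO10*, *TRP2*, *ARG4*, *AQR1* and *HXT2* in each of the 12 WT libraries (points; shape gives the replicate number), with group means ± SD (n = 3). *ARO9* and *ARO10* lie higher in WT+Trp than in WT without overlap, and *ARG4* and *AQR1* lie lower in WT+IB+Trp than in WT+IB.

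Genes of tryptophan synthesis had small main effects. *TRP2*, a subunit of anthranilate synthase (chrV:337949-339472), measured 118, 123 and 122 CPM in WT and 113, 105 and 104 CPM in WT+Trp, with no overlap. Under IB it measured 185, 209 and 212 CPM without Trp and 187, 183 and 165 CPM with it, with overlap. Its log2 fold change was -0.17 ± 0.05 (SE), interval -0.29 to -0.06, adjusted p = 0.984 (edgeR). *TRP3*, its partner, had -0.20 (interval -0.47 to 0.07), *TRP4*, the phosphoribosyltransferase, 0.05 (-0.11 to 0.22), *TRP1*, the isomerase, -0.03 (-0.15 to 0.10), and *TRP5*, tryptophan synthase, -0.09 (-0.23 to 0.06). Every one of these 5 main-effect intervals lay within 1.5-fold. With IB alone *TRP3* had -0.46 (interval -0.79 to -0.13, adjusted p = 0.316, edgeR), against 0.06 without IB. Of the 5 genes, 2 were lower at an unadjusted p under 0.05 with IB (background 5.72%). Without IB 1 was lower (background 2.13%). *ARO4*, which encodes a DAHP synthase at the entry of the shikimate pathway, had a main value of -0.11 (-0.33 to 0.10). Of 7 genes of the shikimate, phenylalanine and tyrosine steps, 0 had an unadjusted p under 0.05, and their values ranged from -0.13 to 0.07.

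Tryptophan permease genes did not pass either. *TAT2*, which encodes the high-affinity tryptophan permease, had a log2 fold change of 0.10 (interval -0.03 to 0.24) and *TAT1*, a broader permease, 0.21 (-0.10 to 0.51). *DIP5*, for the acidic amino acid permease, had 0.22 with a wide interval (-0.22 to 0.66), since its 3 WT+IB+Trp libraries held 461, 233 and 707 CPM. Over 20 plasma membrane amino acid permease genes, 16 had positive and 4 negative values, against 3388 and 2958 of all 6346 loci. None of the 20 had an unadjusted p under 0.05, and the median was 0.057. In the kynurenine pathway and NAD synthesis list, 0 of 15 loci passed, 1 had an unadjusted p under 0.05 (lower, background 1.12%), and the median was -0.026. That locus was *NRK1*, nicotinamide riboside kinase, which is on the salvage side. It measured 14.3, 17.1 and 15.3 CPM in WT, 10.9, 15.3 and 12.5 CPM in WT+Trp, 39.0, 43.6 and 42.2 CPM in WT+IB and 36.3, 34.0 and 32.8 CPM in WT+IB+Trp. Only the groups under IB did not overlap, and its log2 fold change was -0.27 (interval -0.46 to -0.09). *BNA2*, the dioxygenase that commits tryptophan to this pathway, is joined with *YJR079W* in the table, and this locus had 0.08 (-0.08 to 0.24). *BNA1*, *BNA4*, *BNA5*, *BNA6* and *BNA7* had main values from -0.26 to -0.02. *BNA1*, 3-hydroxyanthranilate dioxygenase, had the widest interval of these (-0.62 to 0.10). It had 0.15 without IB and -0.58 with IB (interval -0.99 to -0.17, adjusted p = 0.316, edgeR). With IB 3 of the 15 loci were lower at an unadjusted p under 0.05 (background 5.72%), and without IB 0 were. *BNA3*, kynurenine aminotransferase, had a main value of 0.14 (-0.12 to 0.39). It measured 70.5, 69.3 and 68.3 CPM in WT and 80.6, 71.2 and 76.1 CPM in WT+Trp, without overlap, and 34.0 to 59.5 CPM in the 6 libraries with IB, where the groups overlapped.

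*ARG4*, argininosuccinate lyase of arginine synthesis (chrVIII:140011-141402), was 3rd by its p. It measured 327, 359 and 355 CPM in WT and 267, 358 and 285 CPM in WT+Trp, which overlapped. With IB it measured 289, 306 and 311 CPM without Trp and 215, 193 and 214 CPM with it, which did not. The main log2 fold change was -0.37 ± 0.09 (SE), or 0.775-fold, with an interval of -0.55 to -0.18. Its adjusted p of 0.984 (edgeR) ranged from 0.0759, without WT+Trp replicate 2, to 1.0 over the alternatives. *ARG7*, mitochondrial ornithine acetyltransferase of the same pathway, measured 107, 106 and 105 CPM in WT, 92.4, 112 and 95.6 CPM in WT+Trp, 185, 213 and 190 CPM in WT+IB and 155, 133 and 152 CPM in WT+IB+Trp. Here too only the groups with IB were apart, and the main value was -0.25 (interval -0.42 to -0.09).

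*AQR1*, a plasma membrane exporter that can excrete amino acids (chrXIV:503724-505484), was 5th. It measured 104, 118 and 120 CPM in WT, 86.1, 116 and 97.2 CPM in WT+Trp, 43.1, 58.1 and 54.8 CPM in WT+IB and 32.3, 35.6 and 30.2 CPM in WT+IB+Trp. Its main log2 fold change was -0.41 ± 0.11 (SE; interval -0.65 to -0.18). The separation was again complete under IB alone, where the fitted value was -0.67 (adjusted p = 0.301, edgeR). *HXT2*, a glucose transporter gene, was lower with Trp without overlap in both media. It measured 167, 163 and 177 CPM in WT and 159, 147 and 135 CPM in WT+Trp, then 117, 169 and 131 CPM in WT+IB and 110, 107 and 92.3 CPM in WT+IB+Trp, a main value of -0.32 (-0.51 to -0.12). *IRA1*, a negative regulator of Ras, had -0.23 (-0.37 to -0.09), and *YNR068C* had -0.18 (-0.29 to -0.06).

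The locus with the smallest p was *YGL262W* (chrVII:5312-5839), at a low level. It measured 1.82, 2.29 and 2.33 CPM in WT, 1.47, 1.65 and 1.61 CPM in WT+Trp, 5.79, 6.7 and 6.2 CPM in WT+IB and 4.51, 3.93 and 4.44 CPM in WT+IB+Trp. Neither pair of groups overlapped, and the main value was -0.50 (interval -0.74 to -0.25). On the higher side, *MKC7*, a GPI-anchored aspartyl protease, had 0.32 (0.12 to 0.51), *YLR031W* 0.26 (0.12 to 0.40) and the small nucleolar RNA *snR86* 0.24 (0.10 to 0.39). *GPI19*, of the first step in GPI anchor synthesis, and *GMC2*, a meiotic gene, had 0.35 and 0.41 at means under 10 CPM. *YOR314W* had 0.77 (0.34 to 1.20) at 0.424 to 1.41 CPM. *YDL023C* (0.84) and *YGL102C* (0.42) are not in the RefSeq gene table. Coordinates were missing for them and for *snR86*, and whether other genes overlap these loci was not examined. The other loci of the 16 with coordinates overlapped no other annotated locus.

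A stricter description asks which loci had all 3 libraries with Trp above, or all 3 below, all 3 without Trp in both media. There were 15 higher loci (0.236% of the 6346) and 10 lower (0.158%). Within a single medium such loci were far more frequent, at 681 higher (10.7%) and 568 lower (8.95%) without IB and 403 higher (6.35%) and 440 lower (6.93%) with IB. Of the loci above, *snR86*, *GMC2* and *YOR314W* were among the 15, and *HXT2*, *YGL262W* and *YNR068C* among the 10. *OYE3*, an NADPH oxidoreductase, was also among the 15. It measured 37.9, 40.5 and 39.7 CPM in WT, 42.6, 48.2 and 45.7 CPM in WT+Trp, 29.6, 27.3 and 25.8 CPM in WT+IB and 31.3, 30.0 and 32.2 CPM in WT+IB+Trp, a log2 fold change of 0.19 (0.06 to 0.32).

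Loci that were apart in opposite directions in the 2 media were more numerous, at 97 higher without IB and lower with it (1.53%) and 70 lower without IB and higher with it (1.1%). Over 5547 loci with a mean of at least 10 CPM, the Trp effects in the 2 media had a Pearson correlation of -0.33 and the same sign at 2134 (38.5%). Over all 6346 loci the correlation was -0.17, with the same sign at 39.6%. These correlations are across loci, which are not independent replicates; the contrasts share no library, but each rests on 3 libraries against 3. The test of the difference between media, the interaction, called 0 loci (0.0%) with edgeR in the 12 libraries, where its lowest adjusted p was 0.202, and 912 loci (14.4%) lay under 0.05 before adjustment, 469 higher under IB (7.39%) and 443 lower (6.98%). By DESeq2 there were 95 called loci, by edgeR with all 24 libraries in the fit 17, and by edgeR without WT+Trp replicate 2 there were 7.

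**Figure D3:**
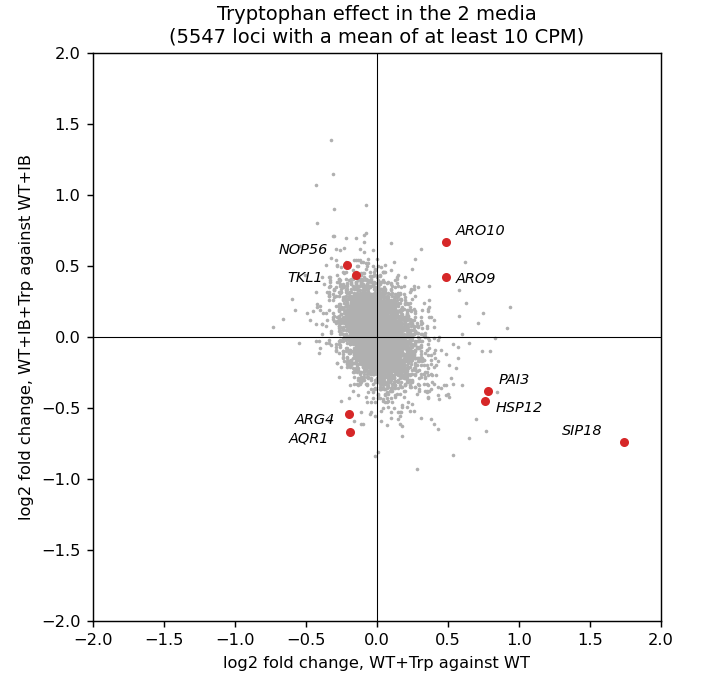
Log2 fold change of Trp under isobutanol (WT+IB+Trp against WT+IB, vertical axis) against that without isobutanol (WT+Trp against WT, horizontal axis) for 5547 loci with a mean of at least 10 CPM. The correlation across loci was -0.33; *ARO9* and *ARO10* lie at upper right, *ARG4* and *AQR1* at lower left, and *SIP18*, *HSP12* and *PAI3* at lower right.

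*SIP18*, a hydrophilin that protects cells in desiccation (chrXIII:611016-611255), was listed by its symbol in the rule for named genes. The comparison was chosen with earlier results of these data known, so this choice cannot be taken as blind to them. Without IB *SIP18* measured 21.1, 16.4 and 14.2 CPM in WT and 72.5, 23.9 and 77.0 CPM in WT+Trp. With IB it measured 7.28, 7.47 and 5.45 CPM without Trp and 3.82, 4.46 and 3.94 CPM with it. All WT+Trp libraries were above WT, although replicate 2 was much closer to WT than replicates 1 and 3, and all WT+IB+Trp libraries were below WT+IB. The log2 fold changes were 1.74 without IB (interval 1.04 to 2.45, adjusted p = 0.425, edgeR) and -0.74 with IB (-1.71 to 0.23). The interaction was -2.48 (-3.67 to -1.29), with an adjusted p of 0.202 in the 12 libraries, 0.0343 with all 24 in the fit and 0.000935 without WT+Trp replicate 2 (all edgeR), and 0.00858 with DESeq2.

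The next 4 genes were chosen after their values were seen, as further cases of this kind. *HSP12*, a membrane-stabilizing heat shock protein gene, measured 1261, 1147 and 1011 CPM in WT, 1884, 1619 and 2269 CPM in WT+Trp, 937, 781 and 665 CPM in WT+IB and 549, 464 and 727 CPM in WT+IB+Trp, with overlap only under IB. *PAI3*, an inhibitor of the vacuolar protease Pep4, measured 49.8, 46.3 and 44.4 CPM in WT, 76.0, 67.9 and 98.1 CPM in WT+Trp, 44.0, 39.7 and 35.2 CPM in WT+IB and 31.4, 27.3 and 32.6 CPM in WT+IB+Trp. *NQM1*, a stationary phase transaldolase gene, had the same order without overlap, with log2 fold changes of 0.49 and -0.41. *NOP56*, a core protein of box C/D small nucleolar particles, went the other way. It measured 134, 148 and 143 CPM in WT, 132, 114 and 119 CPM in WT+Trp, 129, 116 and 137 CPM in WT+IB and 160, 177 and 205 CPM in WT+IB+Trp. *TKL1*, transketolase of the pentose phosphate pathway, was listed by its symbol in the rule, like *SIP18*. It shared the order of *NOP56*, with -0.15 without IB and 0.44 with it (interaction adjusted p = 0.204, edgeR).

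**Figure D4:**
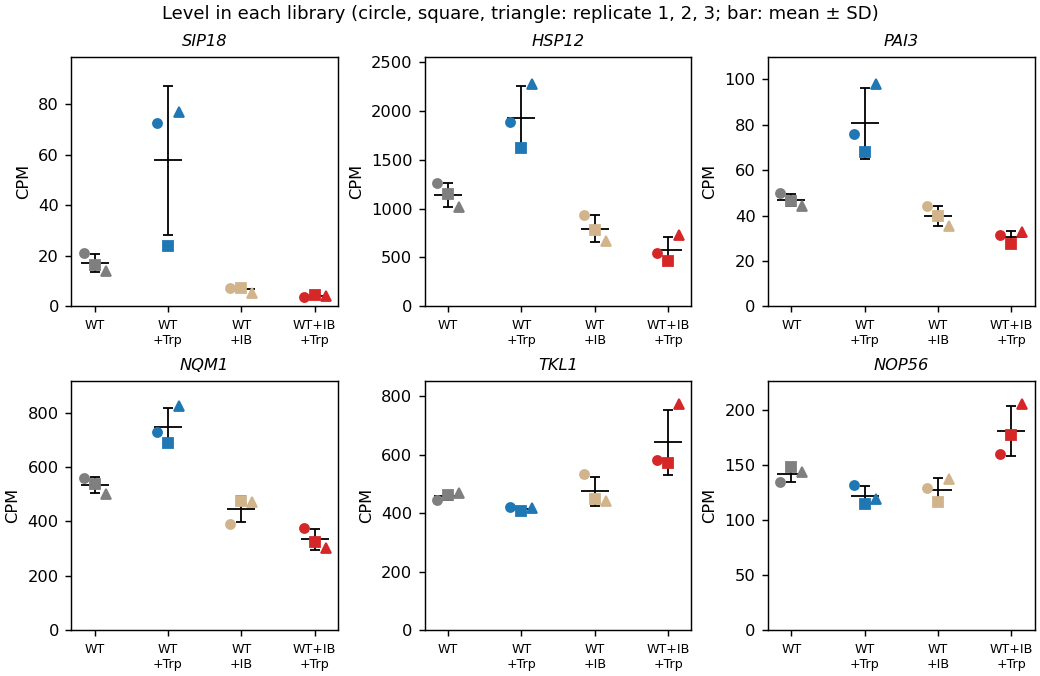
Levels in CPM of *SIP18*, *HSP12*, *PAI3*, *NQM1*, *TKL1* and *NOP56* in each of the 12 WT libraries (points; shape gives the replicate number), with group means ± SD (n = 3). The first 4 are higher in WT+Trp than in WT and have lower means in WT+IB+Trp than in WT+IB, and *TKL1* and *NOP56* show the opposite order.

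Within each medium 0 loci (0.0%) passed with edgeR in the 12 libraries. Without IB 374 loci (5.89%) lay under 0.05 before adjustment and the lowest adjusted p was 0.278, that of *PAI3*. DESeq2 called 13 loci there, among them *PAI3*, *HSP12*, *NQM1*, *GRE1*, *CTT1* (cytosolic catalase) and *GRE2*, all higher with Trp, and *HXT3*, a glucose transporter gene, lower. With all 24 libraries in the fit, edgeR called 3, namely *PAI3*, *SIP18* and *YKL107W*, all higher. Without WT+Trp replicate 2 it called 11, which included *SIP18* (log2 fold change 2.11), *GRE1* (0.93) and *CTT1* (0.70) as well as the glucose transporter genes *HXT3* (-0.94) and *HXT4* (-0.85). Under IB 792 loci (12.5%) lay under 0.05 before adjustment and the lowest adjusted p was 0.301. DESeq2 called 25 loci under IB, 16 lower with Trp and 9 higher. The lower ones included *ARG4*, *ARG7*, *ARG1*, *HIS5*, *HOM3* and *AQR1*, and also *ARO5*, *HOR7*, *UBC8* and *RIB5*. *NOP56* and *DIP2*, a part of the U3 particle that processes ribosomal RNA, were among the higher ones. All 24 libraries in the edgeR fit gave 2, *ARO5* (lower) and *DIP2* (higher). Without WT+IB+Trp replicate 1 there were 3, *DIP2*, *SCR1* (the RNA of the signal recognition particle) and *snR190*, all higher. The loci named in this paragraph other than those named before were chosen by these calls, after their values were seen.

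Gene lists were described by counts and medians. Of 34 genes of general amino acid control, 9 had an unadjusted p under 0.05 in the main effect, all lower (background 1.12%), and 0 passed. Of these 34, 27 had negative and 7 positive values, against 2958 and 3388 of all 6346 loci. The median of the list was -0.097 against 0.007 for all loci. In each medium its medians were -0.047 (3 lower at an unadjusted p under 0.05, background 2.13%) and -0.121 under IB (10 lower, background 5.72%). Dehydration and stress response genes had opposite medians in the 2 media. Of 34, 9 were higher at an unadjusted p under 0.05 without IB (median 0.133, background 3.77%). With IB 8 were lower at an unadjusted p under 0.05 (median -0.160, background 5.72%), while the main median was 0.011. Ribosome biogenesis genes had a median of -0.054 without IB and 0.230 with it, where 20 of 48 were higher at an unadjusted p under 0.05 (background 6.76%). In these lists no member passed in either medium with edgeR in the 12 libraries. The members called by DESeq2 included *ARG4*, *ARG1*, *HIS5* and *HOM3* under IB, *HSP12*, *GRE1* and *CTT1* without IB, and *NOP56* and *DIP2* under IB. Glycolysis genes had medians of -0.223 without IB and 0.021 with IB. Without IB 18 of 20 were negative (3034 of all 6346 loci), and 3 were lower at an unadjusted p under 0.05 (background 2.13%). With IB 12 were positive (3272 of all 6346 loci), and 4 were higher at an unadjusted p under 0.05 (background 6.76%). Daughter cell separation genes (12) had 0.012 and 0.357, with 0 at an unadjusted p under 0.05 under IB. The 137 ribosomal protein genes had 0.039 and -0.012, and 36 of the respiratory chain and ATP synthase had -0.028 and -0.051. With other scalings the median of all loci was 0.000 (relative log expression) and 0.015 (library totals), and the signs of the medians given for these lists stayed the same.

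In each list the member with the smallest p for the main effect is given where it adds to the above, and none of them passed for the main effect with edgeR. *GRE1*, a hydrophilin gene related to *SIP18*, measured 109, 96.1 and 85.6 CPM in WT and 189, 113 and 183 CPM in WT+Trp, without overlap, and 17.2 to 24.1 CPM in the 6 libraries with IB. *ALD3*, a stress-induced cytosolic aldehyde dehydrogenase gene, measured 216, 196 and 169 CPM in WT, 385, 227 and 419 CPM in WT+Trp, 68.7, 36.7 and 46.0 CPM in WT+IB and 53.5, 34.1 and 62.5 CPM in WT+IB+Trp. Without IB *GRE1* passed with DESeq2 (adjusted p = 0.0441) and with edgeR without WT+Trp replicate 2 (adjusted p = 0.0246). The joined locus of *TKL2*, the minor transketolase, and *YBR116C* measured 314, 250 and 222 CPM in WT and 627, 291 and 590 CPM in WT+Trp, with overlap, and without WT+Trp replicate 2 it passed (adjusted p = 0.0482, edgeR). In these 3 loci, as in *SIP18*, WT+Trp replicate 2 was the library of its group closest to WT. Their main log2 fold changes were 0.38 (interval 0.01 to 0.74) for *GRE1*, 0.43 (-0.03 to 0.89) for *ALD3* and 0.60 (0.16 to 1.04) for the *TKL2* locus. *BAS1*, an activator of purine and histidine synthesis, had -0.20 (-0.36 to -0.04), and *CEM1*, a mitochondrial fatty acid synthesis gene, -0.23 (-0.40 to -0.05). *IDI1*, isopentenyl diphosphate isomerase of sterol synthesis, had -0.20 (-0.38 to -0.01), and *FUS3*, the kinase of the pheromone pathway, -0.15 (-0.30 to -0.01). *IDP3*, peroxisomal isocitrate dehydrogenase, had 0.19 (0.01 to 0.38), *PGM1*, a phosphoglucomutase, 0.15 (0.02 to 0.27), and *RPS28B*, a ribosomal protein gene, 0.32 (0.07 to 0.57). Of 75 small nucleolar RNAs, 5 were higher at an unadjusted p under 0.05 (background 2.0%) and 57 had positive values (median 0.104). Of 34 proteasome genes, 31 had negative values (median -0.079) and 0 had an unadjusted p under 0.05. Of all 6346 loci, 3388 had positive and 2958 negative values.

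**Figure D5:**
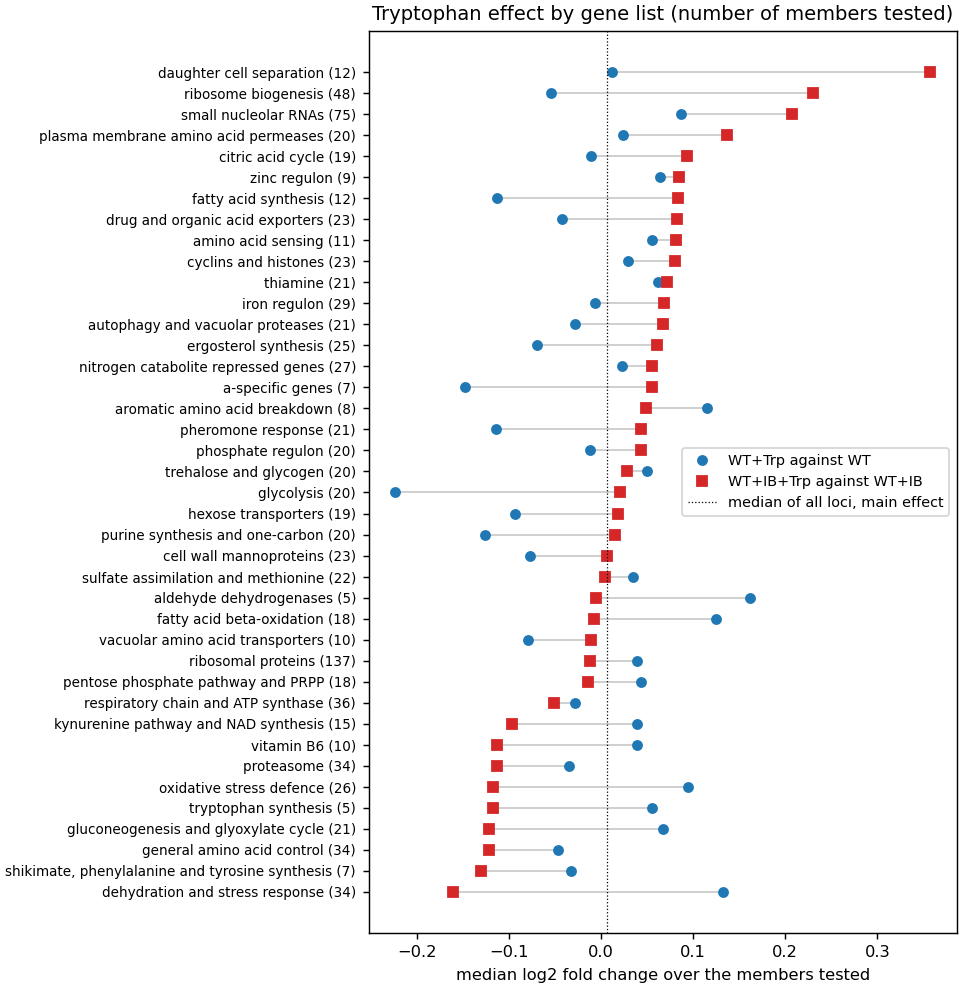
Median log2 fold change of Trp over the tested members of each gene list with 5 or more tested members (horizontal axis), without isobutanol (circles) and under isobutanol (squares), with the median of all loci as a dotted line. Dehydration and stress response (0.133 and -0.160) and ribosome biogenesis (-0.054 and 0.230) have medians on opposite sides of the line.

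The Trp effect of WT was tested against that of Sc12, which cannot complete tryptophan synthesis. Without IB the difference passed at 0 loci (0.0%) with edgeR in 24 libraries, and 218 (3.44%) lay under 0.05 before adjustment. By DESeq2 there were 3, *YLR264C-A*, *snR11* and *snR9*. The edgeR count was 27 without Sc12 replicate 1 and 11 without Sc12+Trp replicate 1, a library the labels mark as make-up data. Under IB the difference passed at 3916 loci (61.7%; 65.0% before adjustment). The Sc12 value was the higher one at 1920 of them and the lower one at 1996, and 1617 (25.5%) were DEGs by the study's thresholds. With library totals in place of the trimmed mean scaling the split was 4003 higher and 810 lower.

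Under IB, 12 of the 16 loci above passed this test (background 61.7%), and the WT value was the smaller one in size at all 12. How often this held over all loci was not counted, so it cannot be read as particular to these 12. For *ARO9* the log2 fold change was 0.42 in WT and 2.75 in Sc12, a difference of 2.33 ± 0.26 (SE; adjusted p = 5.81e-08, edgeR). For *ARG4* it was -0.54 in WT and -5.74 in Sc12, a difference of -5.20 ± 0.18 (adjusted p = 6.06e-17, edgeR). For *TRP2* it was -0.18 and -1.66, a difference of -1.49 ± 0.10 (adjusted p = 1.48e-11, edgeR). *ARO10* had 0.67 in WT and 1.02 in Sc12, a difference of 0.35 ± 0.39 that did not pass (adjusted p = 0.453, edgeR). *SIP18* had -0.74 and 0.26, which did not pass either (adjusted p = 0.0974, edgeR).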

How the data were processed

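RNA was extracted after 24 h, and libraries were made with TruSeq RNA LT kits and sequenced as single-end reads. Per the labels, the authors used bcl2fastq 2.18, Trimmomatic 0.39, TopHat2 2.1.1 with Bowtie2, and Cufflinks 2.2.1 on sacCer3; the gene annotation is not given in the sources used here. The authors deposited unscaled fragments, an estimated count for every locus in every library, of which 98.83% lay within 0.001 of a whole number, and FPKM, which they scaled by length and library size. A deposited table of fold changes and p-values for pairs of groups was not used. The table numbers replicates from 0 and the labels from 1; they were matched in order. Of 6929 loci, 24 with a failed estimate were left out. Of 7048 systematic names, 5999 matched the RefSeq table, and 103 loci join several genes. The strand of reads is not stated for the counting, so antisense partners cannot be told apart.

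After rounding, the quasi-likelihood test of edgeR 4.0.16 (R 4.3.3; two-sided, TMM scaling) was run, with Benjamini-Hochberg adjustment over the 6346 loci whose FPKM averaged 1 or more in the 24 libraries. The main effect used an additive model of isobutanol and tryptophan in 12 WT libraries (common biological coefficient of variation 12.0%). Effects in each medium and their interaction used 4 group means, and strain differences 8 group means over 24 libraries. Levels are CPM with TMM scaling, group errors are SD, and intervals are 95% intervals from the fitted standard errors. The fit was tested on simulated data. DESeq2 1.42.0, limma 3.58.1 on log2(FPKM + 1), other scalings, filters, models and the omission of each library were alternatives. Python 3.11.15, numpy 2.4.6, pandas 2.3.3 and matplotlib 3.10.9 were used for tables and figures.

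Named genes were loci that passed, or else the first 16 by unadjusted p; the members of the tryptophan synthesis, aromatic breakdown and kynurenine lists with *TAT1*, *TAT2*, *ARO4*, *TKL1*, *SIP18* and *DIP5*; and the member with the smallest p of each list, of which the text gives a selection. The rule also named up to 6 loci past the interaction test or past the test in 1 medium, and there were none. The comparison and the gene lists were chosen with earlier results of these data known, and general knowledge of yeast was their source.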

Additional observations from a re-analysis of the deposited data

Results flagged for a closer look

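The Trp effect under isobutanol differed between Sc12 and WT by the test of that difference at 3916 loci. Among the 16 loci with the smallest p for the main effect in WT, 12 were of this kind, against a background of 61.7% over all 6346 loci, so their share is close to that of loci at large. The difference, Sc12 minus WT on the log2 scale, was 2.33 for *ARO9*, 0.90 for *YLR031W* and 0.86 for *MKC7*. It was -5.20 for *ARG4*, -3.31 for *ARG7*, -2.89 for *HXT2*, -2.32 for *YNR068C*, -1.60 for *snR86*, -1.31 for *YGL102C*, -1.17 for *GPI19*, -0.85 for *AQR1* and -0.41 for *IRA1*. For *snR86*, *GPI19* and *YGL102C* the WT value was positive (0.30, 0.31 and 0.24) and the Sc12 value negative (-1.29, -0.86 and -1.06).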

How the results depend on the processing

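The main effect gave 0 called loci and 0 DEGs under every alternative run and without each library in turn (0 to 0). Other counts that moved were, with DESeq2, 13 without isobutanol, 25 with it, 95 for the interaction and 3 for the strain difference without isobutanol; with all 24 libraries in the fit, 3, 2 and 17 for the first 3 of these; and, with limma on log2(FPKM + 1), 1109 for the strain difference under isobutanol, for which the cause was not tested. Leaving out 1 library gave 0 to 11 loci without isobutanol, 0 to 3 with it, 0 to 7 for the interaction, 0 to 27 for the strain difference without isobutanol and 3730 to 3892 for that under isobutanol. The libraries concerned are named above.

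Of 2001 main-effect log2 fold changes of the 87 named loci under alternatives, 1963 kept their sign and 38, at 15 loci, changed it. For the main effect none of the 87 passed under any alternative run, and the lowest adjusted p was 0.0759 (edgeR). In 1 medium or for the interaction some did pass under an alternative, *SIP18*, *PAI3*, *NQM1*, *SFA1* and *TKL1* among them. With limma the values were 0.01 for *UGA3*, *SFA1* and *PNC1*, 0.02 for *BNA4*, 0.03 for *STE2*, 0.06 for *NPT1* and *TRP1* and 0.07 for *BNA7*. Without an isobutanol term *PNC1* had 0.04. Without both Trp libraries numbered 2, *NMA1* had 0.01 and *SFA1* 0.02. Without 1 library the values ran from 0.0 to 0.25 for *PDC5*, -0.09 to 0.01 for *NPT1*, -0.01 to 0.06 for *ARO80*, -0.05 to 0.02 for *TRP1*, -0.10 to 0.06 for *BNA4*, -0.03 to 0.02 for the locus of *NMA2*, -0.10 to 0.05 for *SFA1*, -0.06 to 0.04 for *PNC1*, -0.04 to 0.12 for *NQM1*, -0.07 to 0.06 for *BNA7*, -0.02 to 0.04 for *HST1* and -0.08 to 0.06 for *PDC6*.

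Replicate numbers were not used as pairs in the main fits, and whether they pair the samples is not settled here. Deviations of same-numbered libraries correlated at -0.10 to 0.59 (median 0.065), with 6 of 18 pairs over 0.1. Libraries of other numbers correlated at -0.58 to 0.55 (median -0.025), with 4 of 36 pairs over 0.1. Of the 12 libraries, 6 correlated best with a library of their own number. With the replicate number as a block the main effect called 0 loci (253 at an unadjusted p under 0.05), and the strain difference under isobutanol called 3948. Depth limits the statements on loci under 1 CPM.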
